A study of Mus musculus with 2 samples.

Results

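Autophagy and mitophagy genes were examined for occupancy by NRF1, nuclear respiratory factor 1, in skeletal muscle of 9-week-old wild-type male mice. The 43 genes were taken by symbol, and the choice was made with earlier results of these data known. They comprise the 18 protein-coding mouse genes whose symbol is Atg followed by a digit and 25 further genes named one by one, out of 21000 protein-coding genes with a known RefSeq coding transcript. Chromatin immunoprecipitation followed by sequencing (ChIP-seq) recovers the DNA bound by a protein with an antibody, and sites of occupancy appear as peaks over a control. The series holds 2 libraries, both labelled as NRF1 antibody on wild-type skeletal muscle, but a file list of the study names the second as input DNA. All values below come from 1 deposited list of 3226 peaks whose names carry the title of the first library, so no value has a replicate error. The study gives a minimum number of mice and of repeats for its ChIP-seq in general, but not how many animals contributed to these libraries, and whole muscle also holds nuclei of cells other than myofibers. The tissue label could not be checked, because a peak list has no expression values.

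Autophagy delivers cytoplasm and organelles to lysosomes in a double-membraned vesicle, the autophagosome. The ULK1 kinase complex starts it, and a class III phosphatidylinositol 3-kinase complex marks the membrane. WIPI proteins read this mark, and ATG9 and ATG2 proteins supply lipid. A pair of ubiquitin-like conjugation systems attaches ATG8 proteins such as LC3 to the membrane, where cargo receptors dock. Mitophagy is the removal of mitochondria by this route, through receptors on the outer mitochondrial membrane or through the kinase PINK1. In muscle, autophagy is a major route of protein and organelle breakdown during fasting and atrophy. NRF1 is a transcription factor best known for activating nuclear genes of the respiratory chain, and it binds a GC-rich palindrome.

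The palindrome searched was GCGCATGCGC, which reads the same on both strands, and a copy with at most 1 mismatch within 100 bp of a summit was counted as the NRF1 motif. A summit is the position of highest signal in a peak. The sequences below are the copies nearest the summit at member promoters, printed on the strand of the gene, with 15 bases to either side and every copy in capitals. They are given to show at which base a copy departs from the palindrome. The search allowed at most 1 mismatch, and peaks without such a copy are left out here. Each was read from GRCm38, the assembly of mm10, and the genes are in order of fold enrichment, meaning summit signal divided by the background of the control.
Bnip2, chr9:69989369-69989408, plus strand: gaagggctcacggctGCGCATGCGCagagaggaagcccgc
Atg4d, chr9:21265183-21265222, plus strand: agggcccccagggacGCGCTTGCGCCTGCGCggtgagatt
Map1lc3b, chr8:121590306-121590345, plus strand: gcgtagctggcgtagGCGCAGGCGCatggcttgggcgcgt
Pink1, chr4:138326282-138326321, minus strand: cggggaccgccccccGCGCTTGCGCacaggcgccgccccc
Atg10, chr13:91224044-91224083, minus strand: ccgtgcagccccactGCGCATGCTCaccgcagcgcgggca
Atg7, chr6:114643036-114643075, plus strand: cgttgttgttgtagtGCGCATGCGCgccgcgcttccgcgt
Atg3, chr16:45158632-45158671, plus strand: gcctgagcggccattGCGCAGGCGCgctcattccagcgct
Atg2a, chr19:6241404-6241443, plus strand: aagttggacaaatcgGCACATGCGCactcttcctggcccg

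Wipi2 had a fold enrichment between those of Atg4d and Map1lc3b and held 2 copies to either side of its summit. Its promoter is shown over the 179 bases that span both.
Wipi2, chr5:142629391-142629569, plus strand: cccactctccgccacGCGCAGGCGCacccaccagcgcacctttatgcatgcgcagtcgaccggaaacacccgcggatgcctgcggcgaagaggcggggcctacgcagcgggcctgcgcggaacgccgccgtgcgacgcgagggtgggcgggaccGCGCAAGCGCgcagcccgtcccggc

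To ask how many of these genes NRF1 occupied, each summit was placed relative to transcription starts, and a promoter was taken as 1000 bp before to 100 bp after any start of a gene. A promoter peak was present at 18 of the 43 genes, or 41.9%, against 13.4% of all protein-coding genes. No set test was run on this count, because the genes were chosen with earlier results of these data known. The 18 genes were Ulk1, Rb1cc1, Pik3c3, Atg14, Atg2a, Wipi2, Atg3, Atg4b, Atg4d, Atg5, Atg7, Atg10, Map1lc3b, Nbr1, Bnip2, Bnip3l, Fundc1 and Pink1. Each had 1 promoter peak, and no peak served 2 genes of the group. The Atg symbols contributed 8 of 18 genes and the individually named genes 10 of 25.

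Peak height at these promoters lay in the middle of the list. The median fold enrichment of the 18 peaks was 12.2, with quartiles of 10.2 and 14.5, and over all 2607 promoter peaks it was 11.1, with quartiles of 7.9 and 16.4. The extremes of the group were 3.8 at Nbr1 and 22.9 at Bnip2. The median −log10 q, where q is the false discovery rate given by the authors for each peak, was 26.6 in the group and 25.3 over all promoter peaks. Median peak width was 258 bp in the group and 296 bp over all promoter peaks.

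**Figure D1:**
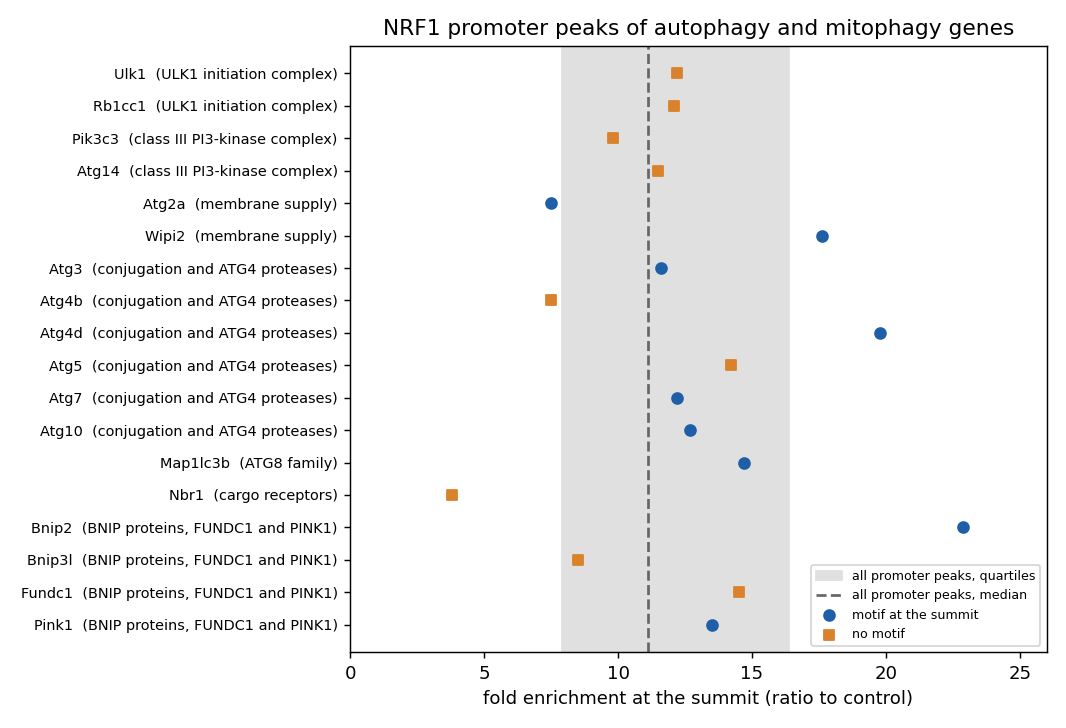
Fold enrichment (x axis, summit signal over control) of the 18 promoter peaks, 1 row per gene with its role, blue circles with the motif and orange squares without it, 1 peak list with no error. The grey band and dashed line give the quartiles and median of all 2607 promoter peaks. Bnip2, Atg4d and Wipi2 lie above the band, and Nbr1, Atg2a and Atg4b lie below it.

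In the ULK1 initiation complex, 2 of 5 genes had a promoter peak. Ulk1 encodes the kinase that starts autophagosome formation, and its peak on chromosome 5, 110809851 to 110810253, was enriched 12.2-fold and a −log10 q of 32.3. Rb1cc1 encodes FIP200, the scaffold of the complex, and its peak on chromosome 1, 6214482 to 6214714, was enriched 12.1-fold and a −log10 q of 34.7. The 2 peaks were thus nearly equal in height, and neither held the motif. Ulk2, the paralogue of Ulk1, and Atg13 and Atg101, the remaining subunits, had none.

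In the class III PI3-kinase complex, 2 of 6 genes had a peak. Pik3c3 encodes VPS34, the lipid kinase itself, and its peak on chromosome 18, 30272647 to 30272874, was enriched 9.82-fold. Atg14 encodes the subunit that directs the kinase to autophagy, and its peak on chromosome 14, 47568516 to 47568714, was enriched 11.5-fold. Neither held the motif, which was present at 9 of the 18 peaks of the group and at 65.9% of all promoter peaks. Becn1, the scaffold subunit, Pik3r4, the regulatory subunit VPS15, Uvrag and Ambra1 had no promoter peak.

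Among genes for membrane supply, 2 of 6 had a peak. Wipi2 encodes a reader of phosphatidylinositol 3-phosphate that recruits ATG16L1, and its peak on chromosome 5, 142629208 to 142629701, was enriched 17.6-fold and a −log10 q of 56.9. Atg2a encodes a lipid transfer protein, and its peak on chromosome 19 from 6241327 to 6241625 was lower, with a fold enrichment of 7.48. Both held the motif. Relative to the start, the 2 Wipi2 copies were centred at -173.5 and -34.5 bp and the summit at -107 bp, between them. The Atg2a copy was centred 77.5 bp from the summit, farther than at any other gene of the group. Atg2b, Atg9a, Atg9b and Wipi1 had no promoter peak.

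The conjugation enzymes and ATG4 proteases, which attach ATG8 proteins to lipid and process them, had the most occupied genes, 6 of 11. The protease gene Atg4d had the highest peak among them, on chromosome 9 from 21264988 to 21265324, with a fold enrichment of 19.8 and a −log10 q of 79.7, the highest of the group. Its 2 copies of the motif overlap, as the sequence above shows. Atg5, whose product is joined to ATG12, followed with a fold enrichment of 14.2 on chromosome 10 from 44268148 to 44268634. Atg10 encodes the E2-like enzyme of the ATG12 system, and its peak on chromosome 13 from 91223956 to 91224204 reached 12.7.

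Atg7 encodes the E1-like enzyme shared by both systems. Its peak on chromosome 6, 114642828 to 114643127, was enriched 12.2-fold and held an exact palindrome. Atg3 encodes the E2-like enzyme for ATG8 proteins, and its peak on chromosome 16 from 45158187 to 45158749 reached 11.6. The weakest of the 6 was the protease gene Atg4b, on chromosome 1 from 93754683 to 93754877, with a fold enrichment of 7.51. The peaks at the E1-like and both E2-like enzyme genes thus had similar heights, but that of Atg3 also lies in the promoter of Slc35a5 and cannot be assigned by position. Atg12, Atg16l1, Atg16l2, Atg4a and Atg4c had no promoter peak.

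Of the 5 ATG8 genes only Map1lc3b, which encodes the widely used autophagosome marker LC3B, had a promoter peak, on chromosome 8 from 121590208 to 121590473 with a fold enrichment of 14.7. A further peak of similar height, 14.9, lay upstream of Map1lc3b on chromosome 8 from 121585414 to 121585720. Its summit was 4847 bp before the start, nearer to this start than to that of any other known gene, and it held no motif. Map1lc3a, Gabarap, Gabarapl1 and Gabarapl2 had no promoter peak.

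Of the 3 cargo receptors, Nbr1 alone had a promoter peak, on chromosome 11 from 101551690 to 101551913, and it was the weakest of the group. Its fold enrichment of 3.8 placed it at rank 2588 of 2607 promoter peaks, and its −log10 q was 2.09. It was the one gene of the group lost when peaks were limited to a q of at most 1e-05 or to a fold enrichment of at least 5, which left 17 genes. Its summit lay 243 bp before the Nbr1 start and 91 bp after the start of a neighbouring gene on the opposite strand. Sqstm1, which encodes the receptor p62, and Optn had none.

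Genes of the outer mitochondrial membrane receptors and PINK1, with Bnip2, were occupied in 4 of 5 cases. Bnip2 had the strongest peak of all 43 genes, on chromosome 9 from 69989236 to 69989548, with a fold enrichment of 22.9, rank 209 of 2607 promoter peaks, and a −log10 q of 68.5. BNIP2 was named like BNIP3 for binding a viral protein but belongs to another protein family and is not an established mitophagy receptor. Fundc1 encodes a receptor linked to hypoxia, and its peak on the X chromosome from 17572259 to 17572477 reached 14.5. Pink1, the kinase gene, had a fold enrichment of 13.5 on chromosome 4 from 138326206 to 138326401. Bnip3l encodes the receptor NIX, and its peak on chromosome 14 from 67008787 to 67008988 reached 8.52. Bnip2 and Pink1 held the motif, and Bnip3l and Fundc1 did not. Bnip3 had no peak. Tfeb and Tfe3, transcription factors that activate lysosomal and autophagy genes, had none either.

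**Figure D2:**
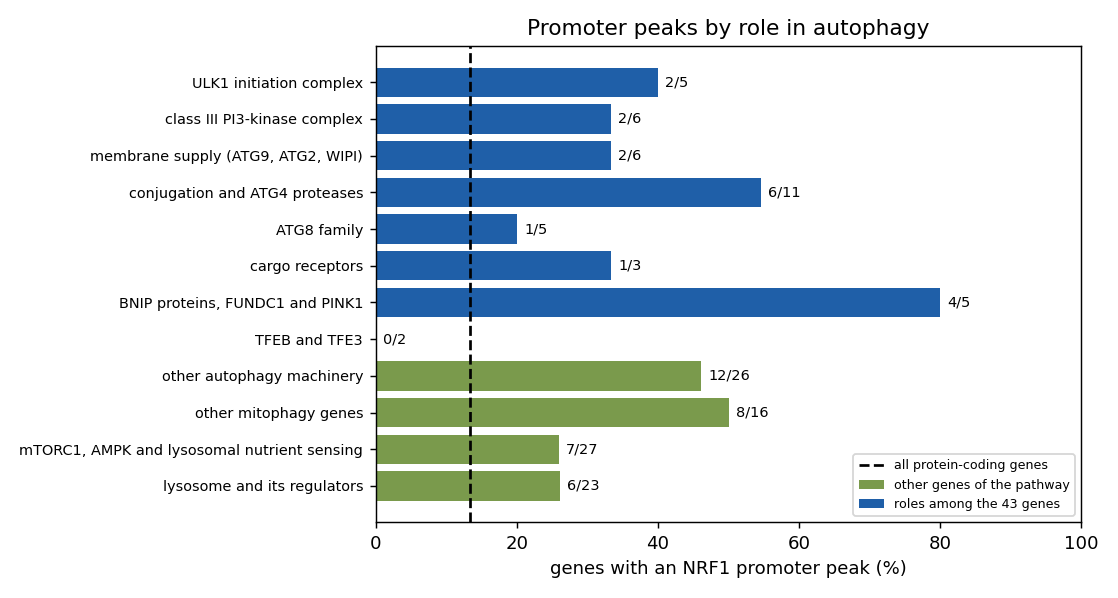
Share of genes with an NRF1 promoter peak (x axis, percent) for the 8 roles among the 43 genes (blue) and for 4 lists of other pathway genes (green), with counts beside the bars. The dashed line is the 13.4% of all protein-coding genes. The ATG4 and conjugation genes (6 of 11) and the group with BNIP genes, Fundc1 and Pink1 (4 of 5) have the highest shares among the roles, and most roles hold 6 genes or fewer.

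The 43 genes include 10 families of paralogues with 23 genes, a grouping made after the peaks were seen and not set against families of other genes. In 6 families some members had a promoter peak and others did not, in 4 families none did, and in 0 families all did. The divided families were Ulk1 against Ulk2, Atg2a against Atg2b, Wipi2 against Wipi1, Map1lc3b against Map1lc3a, Bnip3l against Bnip3, and Atg4b and Atg4d against Atg4a and Atg4c. The families with no peak were Atg9a and Atg9b, Atg16l1 and Atg16l2, the 3 Gabarap genes, and Tfeb and Tfe3.

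The motif was present at 9 of the 18 peaks and at 65.9% of all promoter peaks. For comparison, windows of the same length centred on the starts of protein-coding genes held it in 6.76% of cases. These windows, used again below, lie at starts and not at summits. They were not matched to the peaks for base composition, so the contrast is not like for like. An exact palindrome was present at Atg7 and Bnip2, which is 11.1% of the group, and at 10.9% of all promoter peaks. Within the group the median fold enrichment was 13.5 for peaks with the motif and 11.5 for those lacking it. Over all promoter peaks the medians were 12.9 and 8.58. The 3 highest peaks of the group held the motif and its lowest did not, but Atg2a, with the motif, was lower than 8 of the 9 peaks without it.

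The same imperfect copies recurred. Read on either strand, GCGCAGGCGC was found at 4 peaks of the group, those of Wipi2, Atg3, Atg4d and Map1lc3b, and at 23.4% of all promoter peaks, where the median fold enrichment was 13.7. GCGCAAGCGC was found at 3, those of Atg4d, Wipi2 and Pink1, and at 5.14% of all promoter peaks. The copy of Atg10 was found at 4.37% of all promoter peaks and that of Atg2a at 2.53%. Copies were centred 3.5 bp from the summit at Atg3 and Pink1, 5.5 bp at Atg4d and 8.5 bp at Bnip2.

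Among the 9 peaks without the motif, 7 held a copy with 2 mismatches within 100 bp of the summit, and Rb1cc1 and Atg4b held none. On the strand of the gene it was GCGGCTGCGC in both Ulk1 and Fundc1, and GCGCAGCCGC in both Atg14 and Nbr1. How often these sequences occur over all promoter peaks was not counted. Over all promoter peaks without the motif the share was 73.5%, close to the 77.8% here, and 18.4% of windows at all starts hold such a copy or a better one. The letters TGCGCA, which read the same on both strands and share most of their letters with each arm of the palindrome, were searched for after the peaks were seen. They occurred at 12 of the 18 peaks, or 66.7%, against 52.7% of all promoter peaks. Windows at all starts held them in 7.58% of cases, with or without the motif. Among peaks without the motif they occurred at 5 of 9, against 40.4% over all such promoter peaks. The summits of Fundc1 and Atg5, the 2 highest peaks without the motif, are shown with 20 bases to either side, and capitals are absent because no motif was found.
Fundc1, chrX:17572335-17572375, minus strand: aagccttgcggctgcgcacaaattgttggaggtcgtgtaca
Atg5, chr10:44268294-44268334, plus strand: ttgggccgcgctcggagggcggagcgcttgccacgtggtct

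All 18 summits lay upstream of the nearest known start of their own gene. Relative to the nearest start of any gene, 15 of the 18 lay upstream, or 83.3%, against 76.5% of all promoter peaks, so this position is common to the list as a whole. The distance ranged from 2 bp at Pink1 and 21 bp at Bnip3l to 181 bp at Atg3 and 243 bp at Nbr1, although the promoter window reached to 1000 bp. At 3 genes the peak also lay in the promoter of another protein-coding gene, a share of 16.7% against 11.8% of all promoter peaks. In these 3 cases the neighbour was on the opposite strand. These were Atg3, which shares it with Slc35a5, Atg4b, which shares it with Thap4, and Nbr1. The starts were 156 bp apart for Atg3, 67 bp for Atg4b and 152 bp for Nbr1. In each of the 3 pairs the summit was nearer to the start of the neighbour, 25 bp after that of Slc35a5 and 84 bp after that of Thap4, so the peak cannot be assigned to either gene by position.

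**Figure D3:**
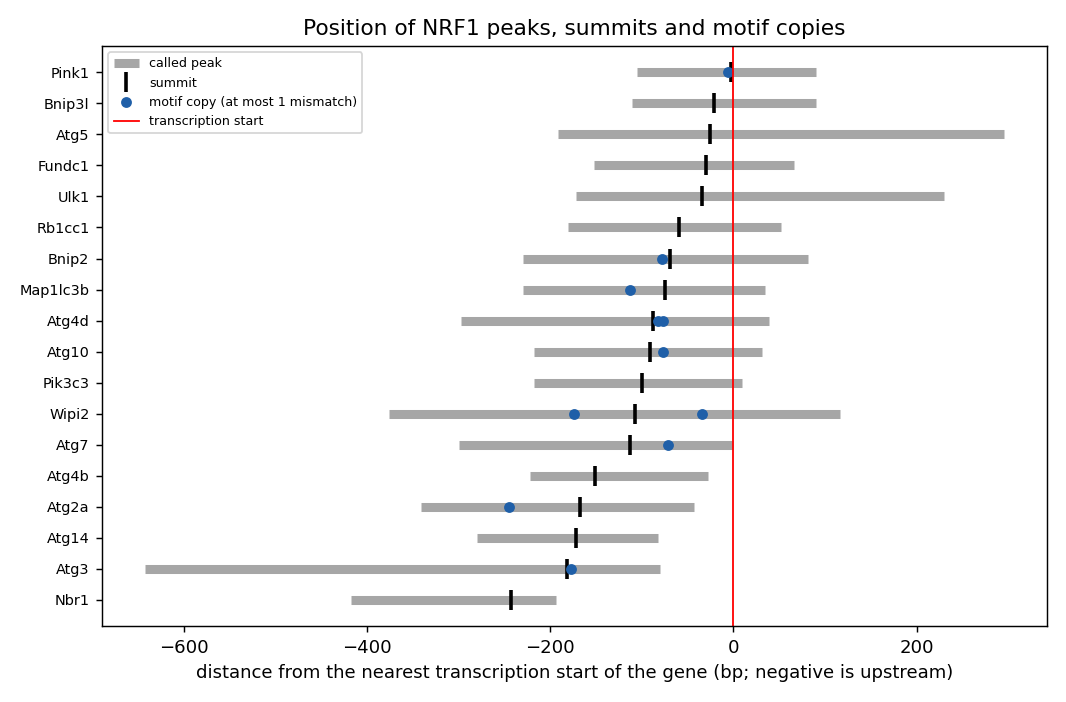
Position of the 18 peaks relative to the nearest transcription start of the gene (x axis, bp, negative values upstream), 1 row per gene, with the called peak as a grey bar, the summit as a black tick, motif copies as blue dots and the start as a red line. All summits lie between 2 and 243 bp before the start, and at Atg3, Pink1, Atg4d and Bnip2 a motif copy lies within 10 bp of the summit.

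Over all genes a peak was present at 24.3% of promoters rich in CpG dinucleotides and at 2.69% of the others, and the comparison was repeated among the former. A start was called CpG-rich if the sequence within 200 bp had a GC content of at least 55% and a ratio of observed to expected CpG of at least 0.65. This held for 33 of the 43 genes and 10395 of all genes. Among them, 16 genes of the group had a promoter peak, or 48.5%, against the 24.3% of all CpG-rich genes. Only Nbr1 and Fundc1 had a peak without a CpG-rich start. With CpG richness measured over the whole promoter window, only 9 genes of the group were left, of which 3 had a peak, or 33.3% against 27.6%, and with a GC content of at least 50% and a ratio of at least 0.6 it was 17 of 37, or 45.9% against 23.1%. The difference from all genes was thus similar under the looser limits and smaller, over few genes, in the wider window.

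Within the group, a promoter peak was present at 16 of 33 CpG-rich genes and at 2 of the 10 others. The CpG ratio ranged from 0.561 to 1.2 with a median of 0.859 in the 18 genes with a peak, and from 0.107 to 1.13 with a median of 0.82 in the 25 without, so the medians and upper ends were close. Ratios below 0.561 were found in genes without a peak only, namely Atg9b with 0.107, Atg4a with 0.395 and Atg9a with 0.502. Over all genes the medians were 0.898 with a peak and 0.601 without. Ulk2 had a ratio of 1.07 and no peak, whereas its paralogue Ulk1 had 0.841 and a peak. Atg2b, with 1.01, and Map1lc3a, with 0.976, also had no peak.

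**Figure D4:**
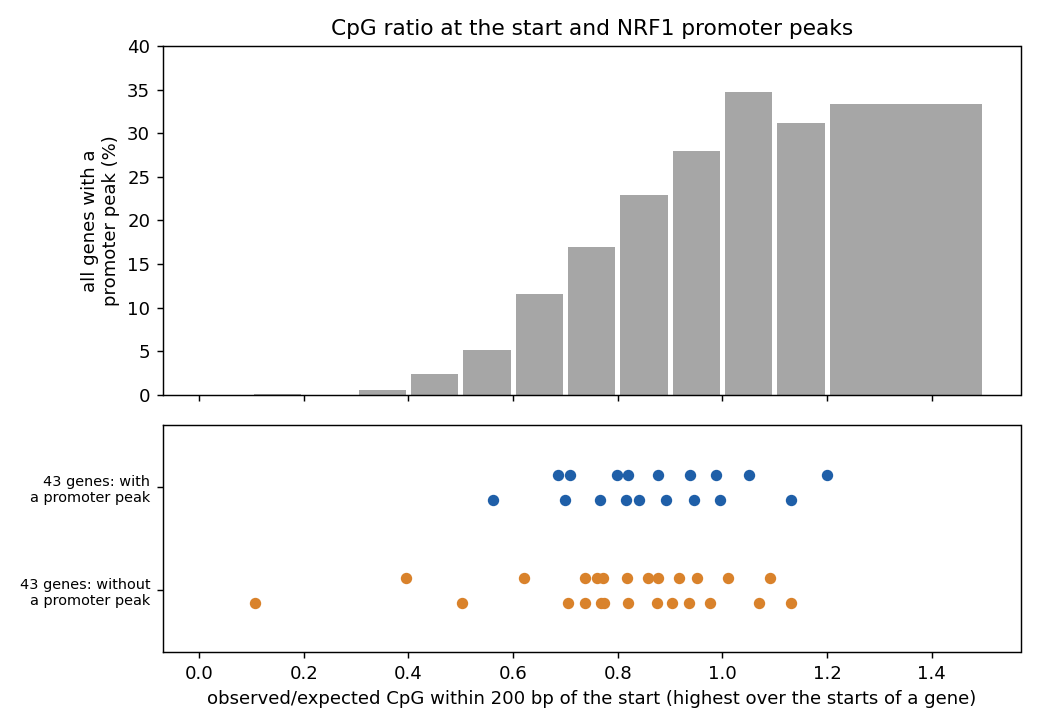
Upper panel, share of all protein-coding genes with a promoter peak (y axis, percent) by observed/expected CpG ratio within 200 bp of the start (x axis, highest value over the starts of a gene). Lower panel, the ratio of each of the 43 genes, blue with and orange without a promoter peak, staggered vertically for legibility. The share of all genes rises to 34.7% for ratios of 1.0 to 1.1, while the 2 rows of dots overlap from 0.561 upward and the lowest 3 ratios belong to genes without a peak.

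The presence of the motif in the promoter went with a peak more closely. At least 1 copy lay in the promoter of 10 of the 43 genes, and 9 of these had a promoter peak, or 90.0%, against 75.4% of all genes with a copy. The exception was Bnip3, which encodes a mitophagy receptor and has a copy centred at -115.5 bp from its start but no peak there. The nearest summit was 63232 bp away. Its sequence is shown for comparison with the occupied copies above.
Bnip3, chr7:138909602-138909641, minus strand: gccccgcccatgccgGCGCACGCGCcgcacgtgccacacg

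Of the 33 genes with no copy in the promoter, 9 had a promoter peak, or 27.3%, against 4.81% of all genes with no copy. Among CpG-rich genes with no copy it was 7 of 23, or 30.4%, against 9.5%. These are descriptions of a chosen list, and the difference was not tested.

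**Figure D5:**
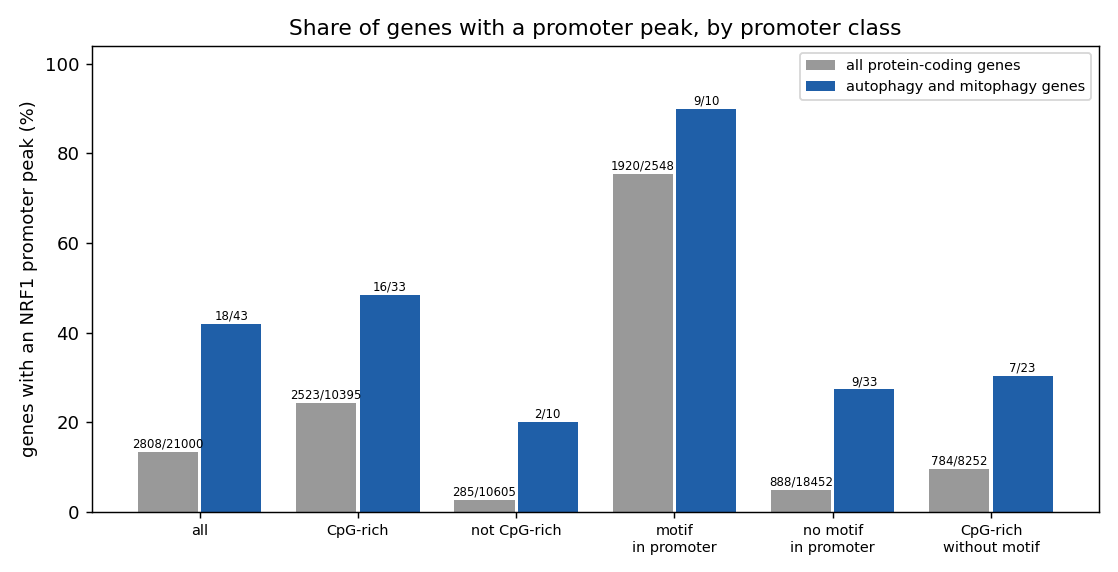
Share of genes with a promoter peak (y axis, percent) among all protein-coding genes (grey) and the 43 autophagy and mitophagy genes (blue), in all promoters and by CpG richness and presence of the motif. Counts stand above the bars. The blue bar is the higher one in each class, and the classes for the group hold between 10 and 43 genes.

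For the 25 genes with no promoter peak, the nearest summit lay a median of 147796 bp from a start, against 186975 bp for all protein-coding genes without a promoter peak and 127706 bp for the CpG-rich ones among them. At 14 of the 25 it was more than 100000 bp away, with a maximum of 1433582 bp at Atg4a, against 64.3% of all genes without a promoter peak and 56.7% of the CpG-rich ones, so the distances were much like those of other such genes. Within 10000 bp there were peaks near 2 of the 25, Gabarap and Atg16l2, or 8.0%. This was close to the 5.16% of all genes without a promoter peak and the 6.45% of the CpG-rich ones. Near Gabarap the summits lay 4311 bp after its start, in the promoter of Phf23, and 9367 bp after it, in Dvl2. At Atg16l2 the summit was 8747 bp before the start and nearer to a start of Stard10. For Becn1 the nearest summit was 13856 bp upstream, in the promoter of Psme3. A summit lay in the body of 2.53% of all genes without a promoter peak and of none of these 25, and a promoter of 2000 bp before to 500 bp after the start added none of them. Read depth is unknown from the list, so a gene without a peak cannot be told from one with occupancy below the threshold.

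Other genes of the pathway were also counted by list, beside the 13.4% of all genes and the 24.3% of all CpG-rich genes. A peak that also lies in the promoter of another gene is counted here too and cannot be assigned by position. Examples are Rubcn (shared with Fyttd1), Snap29 (Pi4ka), Phb2 (Emg1), Akt1s1 (Tbc1d17), Atp6v1a (Naa50) and Atp6v0d1 (Gm38250). In other autophagy machinery, where 21 of 26 genes were CpG-rich, 12 of 26 genes had a promoter peak, or 46.2%, with a median fold enrichment of 10.5 and the motif at 9 of the 12. Stx17, the syntaxin that joins autophagosomes to lysosomes, had the highest, 25.1, without the motif, followed by Tax1bp1, a cargo receptor, with 20.7. Tmem41b, a lipid scramblase, reached 16.0, Wdr45b, a relative of the WIPI proteins, 14.8, and Tollip 14.5. Snap29 and Ykt6, SNARE proteins of the same fusion step as STX17, had 10.6 and 7.29. Rubcn, an inhibitor of the PI3-kinase complex, and Nrbf2, a subunit of it, had 10.0 and 9.19, Ncoa4, the receptor for ferritin, 10.3, and Tecpr1 and Tex264 5.91 and 5.77.

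In other mitophagy genes, 15 of them CpG-rich, 8 of 16 had a promoter peak. Their median fold enrichment was 12.9, with the motif at 5 of the 8. Tomm7, a subunit of the outer membrane translocase on which PINK1 accumulates, had 21.8, and Usp8, a deubiquitinase, 19.5. Oma1, a protease that degrades PINK1, had 17.6. Tbk1, the kinase of cargo receptors, had 9.65, Phb2 6.44, Usp15 5.9 and Bcl2l13 3.77.

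Upstream and downstream of autophagy the shares were lower. They were above the 13.4% of all protein-coding genes but close to the 24.3% of all CpG-rich genes. Both lists are mostly CpG-rich but also hold other genes, so neither share is a like-for-like reference. In mTORC1, AMPK and lysosomal nutrient sensing 7 of 27 genes had a promoter peak, or 25.9%, and 23 of the 27 were CpG-rich. The median fold enrichment was 16.5, with the motif at 3 of the 7. Tbc1d7 had the highest fold enrichment of the list. It was followed by Lamtor3 at 19.9, Prkaa1 at 16.7, Prkab2 at 16.5, Akt1s1 at 10.3, Flcn at 7.87 and Rheb at 7.07. In lysosome and its regulators 6 of 23 genes had a promoter peak, or 26.1%, and 14 of the 23 were CpG-rich. The median fold enrichment was 15.4, with the motif at 4 of the 6. The genes with a peak included 3 subunits of the proton pump that acidifies lysosomes, Atp6v1b2 at 24.3, Atp6v1a at 21.9 and Atp6v0d1 at 15.5. The Atp6v1a peak was shared, with its summit at -544 bp, and the Atp6v0d1 peak was shared with Gm38250. Atp6v1h and Atp6ap1 of the same list had no promoter peak. The calcium channel gene Mcoln1 had 15.2, Ctsd, which encodes cathepsin D, 10.5 and Npc1 4.52.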

How the data were processed

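Per the methods, single-end reads were aligned to mm10 by Bowtie, only unique alignments were kept, and the authors called peaks with MACS2 against input DNA. The deposited list gives for each peak a fold enrichment, which is a ratio to the control background, a −log10 q-value and the summit as a distance from the peak start. Unique mapping lowers signal in repeats, and duplicate removal, named in the peak names, can cap the highest peaks. The methods name a blacklist of a human build and an FDR limit of 0.01, which 7 peaks of the list exceed. They also name the broad option of MACS2, whereas the list has the narrow layout with summits, and the number of NRF1 peaks the study states is not that of the list, so the list may not be the one the study used.

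Here summits were placed relative to 31603 starts of known RefSeq transcripts of GRCm38.p6 with Python 3.11.15 and NumPy 2.4.6. The motif search, CpG ratio and strand rules were tested on simulated data. A rule fixed for named genes covered every member with a promoter peak, members with a motif or a peak nearby, and pathway genes with a peak. The members and lists were chosen with earlier results of these data known, so counts stand beside those of all genes and no test was run. Alternatives covered the promoter window, overlap, peak thresholds, starts, motif and CpG definition. For 1 pathway gene with a peak, which is counted in its list, the values are not reported here.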

Additional observations from a re-analysis of the deposited data

How the results depend on the processing

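Of 30 alternative values for 5 results, 20 stayed close to the value reported, that is, within 1.5 times it for counts and median fold enrichment and within the Wilson 95% interval for the share of all genes. The count of genes in the group with a promoter peak was 17 or 18 under each of the 7 alternatives run, with Nbr1 the gene lost, and the median fold enrichment stayed at 12.2. The share of all protein-coding genes moved from 13.4% to 14.7% with promoters reaching 2000 bp upstream and 500 bp downstream, 14.1% with 500 bp either side, 14.2% with any overlap, 12.8% at a q of at most 1e-05 and at a fold enrichment of at least 5, 13.9% with predicted transcripts and 12.7% with 1 start per gene. The motif was found at 2 of the 18 peaks with no mismatch and at 16 with at most 2 mismatches, by construction of those searches. The number of CpG-rich genes of the group with a peak fell from 16 to 3 when CpG richness was measured over the whole promoter, because 9 in place of 33 genes met that definition.

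No replicate could be left out, because the series has a single deposited table. No paired analysis was possible because it holds no values per replicate. Since the read depth is not known, a gene with no peak may have occupancy under the threshold of the caller. The search for TGCGCA, found at 12 of the 18 peaks and 52.7% of all promoter peaks, was added after seeing the data.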
